A study of Homo sapiens with 20 samples.

Results

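MYC, its obligate partner MAX and the proteins that compete for MAX were followed as 9 genes, MYC, MAX, MXD1, MXD3, MXD4, MXI1, MNT, MGA and MLX, chosen by symbol from the 58288 genes counted in each library. DOHH2 and U2932 are established human lines of diffuse large B-cell lymphoma, a cancer of mature B cells. Polyadenylated RNA was sequenced from 20 libraries of cells given either the compound labelled TK or its vehicle DMSO. In DOHH2 there were 3 TK and 2 DMSO libraries at 18 h, and 3 TK and 3 DMSO libraries at 8 h. In U2932 there were 3 TK libraries and 1 DMSO library at 18 h, and 2 TK and 3 DMSO libraries at 8 h. The labels do not say what TK stands for, and do not state that replicates came from separate cultures, so the p-values may reflect technical spread alone. Any U2932 value at 18 h that uses DMSO rests on 1 library, whose spread was taken from the remaining groups.

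MYC is a transcription factor that activates genes of growth, ribosome production and metabolism, and it binds DNA only as a dimer with MAX. MXD1, MXD3, MXD4, MXI1 and MNT bind MAX in place of MYC and recruit SIN3 and histone deacetylases, so that the same E-box sites are repressed. MGA also pairs with MAX and sits in a variant Polycomb complex, while MLX is a MAX-like partner of MXD1, MXD4, MNT and the glucose-responsive MondoA (MLXIP). In lymphoma MYC is often translocated or amplified, and the balance between MYC and its antagonists is known for its part in B-cell growth and differentiation.

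The network is known to act through the E-box CACGTG, which reads the same on both strands. The promoter windows of the members other than MYC were searched for it to show where it lies. Of 13 RefSeq windows (GRCh38.p14), each running from 250 bases before to 50 bases after a start site, 3 held the motif, one each of MXD4, MNT and MLX. By window this is 23.1% for the members, where 2548 of the 35116 windows of all genes (7.26%) held it. By gene it is 3 of the 8 members with a window, for which no share over all genes was computed. The 3 windows are printed 5′ to 3′ on the strand of the gene, with the motif in capitals.
MXD4, chr4:2262060-2262359, minus strand: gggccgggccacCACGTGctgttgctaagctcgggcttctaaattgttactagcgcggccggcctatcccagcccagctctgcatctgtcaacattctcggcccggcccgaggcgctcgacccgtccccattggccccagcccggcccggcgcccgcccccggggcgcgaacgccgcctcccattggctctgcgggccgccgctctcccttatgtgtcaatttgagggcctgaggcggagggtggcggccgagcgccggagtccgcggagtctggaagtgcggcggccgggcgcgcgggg
MNT, chr17:2401011-2401310, minus strand: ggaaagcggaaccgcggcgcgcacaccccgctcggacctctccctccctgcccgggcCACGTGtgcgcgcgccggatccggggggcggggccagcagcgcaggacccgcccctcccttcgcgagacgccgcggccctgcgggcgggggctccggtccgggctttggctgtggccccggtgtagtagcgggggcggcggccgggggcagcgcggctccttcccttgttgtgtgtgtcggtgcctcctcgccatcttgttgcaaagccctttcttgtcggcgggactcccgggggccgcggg
MLX, chr17:42566850-42567149, plus strand: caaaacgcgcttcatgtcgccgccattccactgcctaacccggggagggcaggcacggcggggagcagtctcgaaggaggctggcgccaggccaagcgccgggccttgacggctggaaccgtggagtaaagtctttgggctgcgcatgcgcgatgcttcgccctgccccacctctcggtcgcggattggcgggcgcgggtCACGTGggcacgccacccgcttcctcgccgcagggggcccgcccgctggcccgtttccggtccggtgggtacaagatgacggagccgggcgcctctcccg
The motif began 238 bases before the start site in MXD4, 193 before it in MNT and 50 before it in MLX. A match is a string of letters and no evidence of binding, which was not measured.

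All 9 members passed the filter on low counts, and the lowest count of any member in any library was 170, for MXI1. Counts assigned to genes came to between 30363255 and 52275430 per library (median 34671988). Libraries named replicate 1 of DOHH2 with TK stood apart: at 18 h 56.6% of counts lacked a unique alignment, where the rest of the series had 20.7 to 34.3%, and at 8 h the mitochondrial share was 3.29%, where the rest had 5.06 to 8.08%. The summed level of 6 B-cell markers was 806 to 1481 CPM (counts scaled to library size) in DOHH2, against 2352 to 3010 CPM in U2932, all 6 were detected in every library, and no T-cell, monocyte or erythroid marker passed 1.39 CPM. Of 3 epithelial or stromal markers, COL1A1 reached 29.2 CPM in DOHH2 and EPCAM 32.2 CPM in U2932. DOHH2 is usually classed as germinal centre type and U2932 as activated type, and the markers of these types were mixed. Of 5 germinal centre markers, BCL6 (0 to 0.358 CPM in DOHH2, 330 to 409 CPM in U2932), LMO2 and MYBL1 were lower in every DOHH2 library, GCSAM was higher, and MME overlapped. Of 4 activated-type markers, IRF4 was higher in DOHH2 (674 to 962 CPM in DOHH2, 326 to 420 CPM in U2932), FOXP1 and PIM1 were lower, and BATF overlapped. The lines are therefore named only as labelled.

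The lines differed in nearly every member of the network, as they did in most of the genes tested. MYC was 23.4-fold and 26.2-fold higher in DOHH2. Of its antagonists MXI1, MNT and MGA were higher there, MNT and MGA with overlapping libraries in DMSO at 8 h. MXD1, MXD3 and MXD4 were lower. In DMSO at 8 h, 8 of the 9 members differed between the lines at an adjusted p under 0.05, 5 higher and 3 lower in DOHH2. That share is to be read against the 67.8% of all 16478 genes tested that differed in the same comparison. With TK at 18 h it was again 8 of 9, 5 higher and 3 lower, against 69.2% of all genes. Over all 11 DOHH2 and all 9 U2932 libraries, 6 members did not overlap between the lines: MYC, MXI1 and MLX were higher in DOHH2, and MXD1, MXD3 and MXD4 lower. Of all genes, 46.8% did not overlap in this way.

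**Figure D1:**
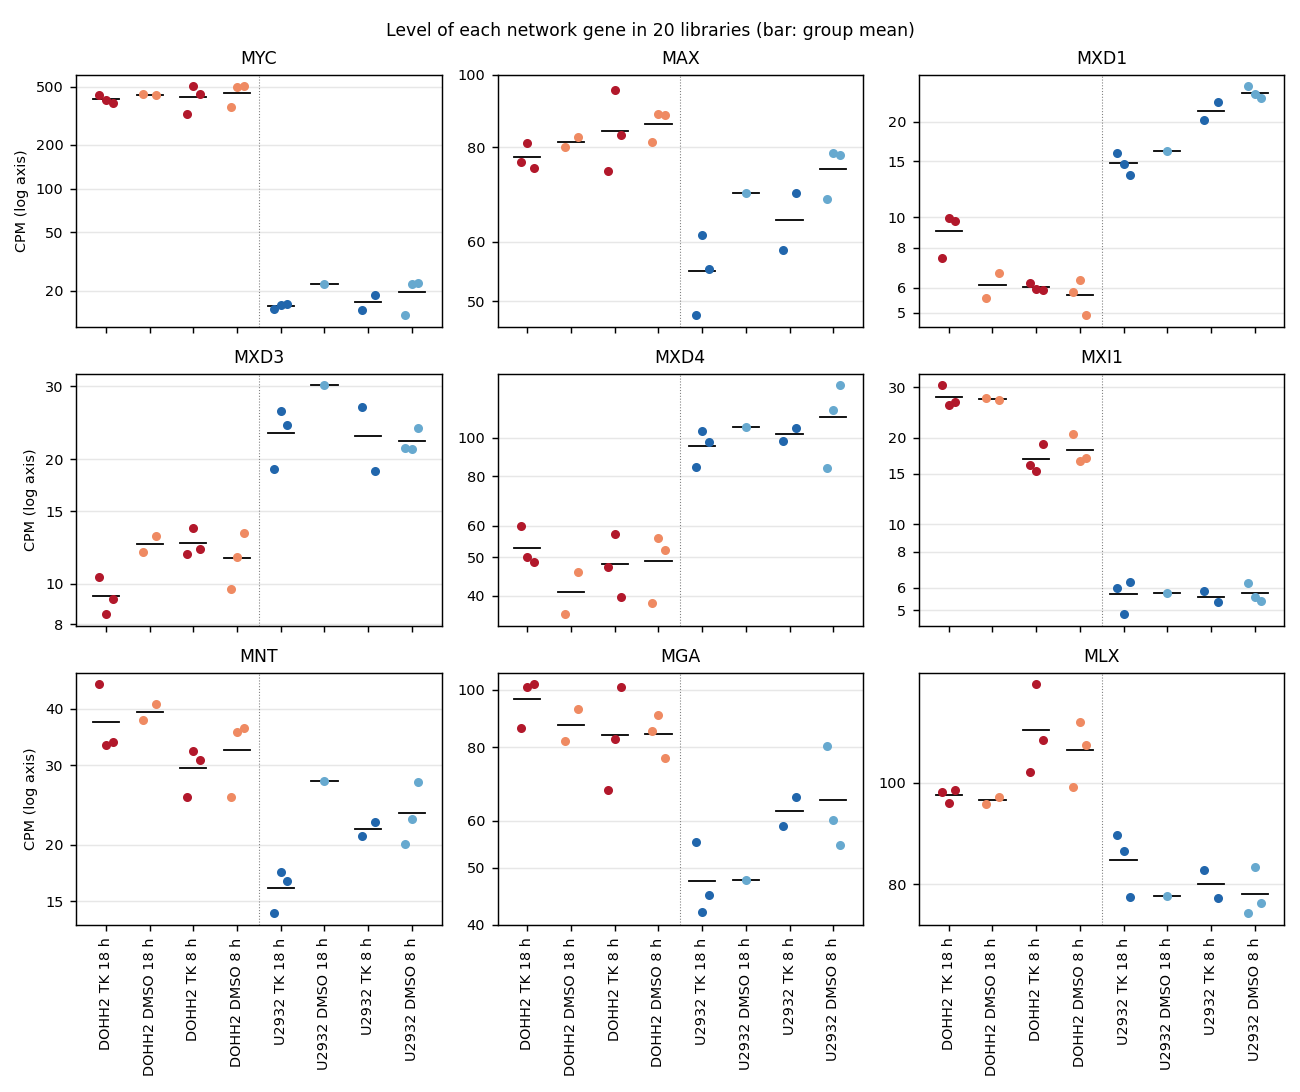
CPM (log axis) of the 9 genes in each of 20 libraries, as points, with the mean of each of the 8 groups as a bar; red and orange are DOHH2 with TK and DMSO, dark and light blue U2932 with TK and DMSO. MYC lies at 326 to 504 CPM in every DOHH2 library and at 13.6 to 22.6 CPM in every U2932 library.

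MYC (chromosome 8, 127735434 to 127741434, plus strand, in GENCODE v29 on GRCh38), the activator of the network, had 435, 407 and 386 CPM in DOHH2 with TK at 18 h and 442 and 437 CPM with DMSO at 18 h. At 8 h it had 326, 504 and 448 CPM with TK and 362, 495 and 504 CPM with DMSO. In U2932 it had 14.9, 15.9 and 16.2 CPM with TK at 18 h, 22.2 CPM with DMSO at 18 h, 14.6 and 18.6 CPM with TK at 8 h, and 13.6, 22.1 and 22.6 CPM with DMSO at 8 h. Every DOHH2 library was far above every U2932 library, and within DOHH2 the 18 h libraries with TK lay just below both with DMSO, inside the range of the 8 h libraries. In DMSO at 8 h MYC averaged 454 ± 79.7 CPM in DOHH2 and 19.4 ± 5.06 CPM in U2932 (SD, n = 3 each), a log2 difference of 4.55 (SE 0.20, 23.4-fold, adjusted p = 5.75e-14). At 18 h with TK the difference was 4.71 (SE 0.21, 26.2-fold, adjusted p = 3.81e-14). In bulk RNA, a smaller share of cells with a transcript and less of it per cell cannot be told apart.

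MAX (chromosome 14, 65006174 to 65102695, minus strand), the partner that every E-box complex of the network shares apart from those of MLX, was far more even. It ranged from 74.5 to 95.2 CPM in DOHH2 (median 81.4) and from 47.9 to 78.6 CPM in U2932 (median 68.3), so the lines overlapped. In DMSO at 8 h the line difference of 0.20 (SE 0.12, adjusted p = 0.145) did not pass. At 18 h with TK MAX was higher in DOHH2, by 0.50 (SE 0.12, adjusted p = 0.00089), with 76.5, 81.1 and 75.2 CPM in DOHH2 and 47.9, 61.3 and 55.2 CPM in U2932.

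MXD1 (MAD1, chromosome 2, 69897688 to 69942945, plus strand), an antagonist induced when cells differentiate, was lower in DOHH2. In DMSO at 8 h it had 5.80, 6.33 and 4.91 CPM in DOHH2 and 25.9, 24.3 and 23.8 CPM in U2932, a log2 difference of -2.12 (SE 0.15, adjusted p = 5.19e-11). In the TK libraries at 18 h it had 7.45, 9.92 and 9.75 CPM in DOHH2 and 15.9, 14.7 and 13.6 CPM in U2932, and the difference was -0.71 (SE 0.14, adjusted p = 0.000157). The lines did not overlap at either point, and these pairs of groups differ in both time and treatment.

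MXD3 (chromosome 5, 177301461 to 177312757, minus strand), a family member known from proliferating cells, and MXD4 (chromosome 4, 2247432 to 2262294, minus strand) were both lower in DOHH2. MXD3 ranged from 8.46 to 13.6 CPM in DOHH2 (median 11.8) and from 18.7 to 30.2 CPM in U2932 (median 23.9). Its line difference was -0.94 (SE 0.16, adjusted p = 2.53e-05) in DMSO at 8 h and -1.31 (SE 0.16, adjusted p = 3.56e-07) with TK at 18 h. MXD4 ranged from 35.9 to 59.8 CPM in DOHH2 (median 48.6) and from 83.9 to 136 CPM in U2932 (median 104). Its difference was -1.20 (SE 0.18, adjusted p = 5.23e-06) in DMSO at 8 h and -0.85 (SE 0.18, adjusted p = 0.000254) with TK at 18 h. Exons of MXD3 share 926 bases with RAB24 on the same strand and 1158 with PRELID1 on the other, which is 18.0% and 22.5% of its exon length, so MXD3 counts are uncertain. PRELID1 lay at 187 to 344 CPM in DOHH2 and 187 to 302 CPM in U2932, far above MXD3 in both lines. RAB24 lay at 17.4 to 28.3 CPM in DOHH2 libraries and 23.3 to 35.8 CPM in those of U2932, and the part of either neighbour in the MXD3 difference was not tested.

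MXI1 (chromosome 10, 110207605 to 110287365, plus strand), also called MXD2, went the opposite way to its relatives. It ranged from 15.3 to 30.6 CPM in DOHH2 (median 20.6) and from 4.85 to 6.27 CPM in U2932 (median 5.74), without overlap. In DMSO at 8 h it averaged 18.1 ± 2.23 CPM in DOHH2 and 5.74 ± 0.434 CPM in U2932 (SD, n = 3 each), a log2 difference of 1.65 (SE 0.14, adjusted p = 1.79e-09). At 18 h with TK the difference was 2.28 (SE 0.14, 4.87-fold, adjusted p = 1.27e-11).

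MNT (chromosome 17, 2384060 to 2401118, minus strand), the broadly expressed antagonist, ranged from 25.5 to 45.4 CPM in DOHH2 and from 14.1 to 27.7 CPM in U2932. MGA (chromosome 15, 41621224 to 41773081, plus strand) ranged from 67.6 to 102 CPM in DOHH2 and from 42.0 to 80.5 CPM in U2932. In DMSO at 8 h both passed with overlapping libraries, MNT by 0.47 (SE 0.16, adjusted p = 0.0147) and MGA by 0.37 (SE 0.16, adjusted p = 0.0441). The MNT call was lost in 5 of 14 other settings and the MGA call in 9 of 14; with upper quartile scaling the differences were 0.33 and 0.23. With TK at 18 h both stood clear, MNT by 1.22 (SE 0.16, adjusted p = 1.3e-06) and MGA by 1.03 (SE 0.16, adjusted p = 8.97e-06), and no other setting ended either call.

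MLX (chromosome 17, 42567068 to 42573239, plus strand), the MAX-like partner, was higher in every DOHH2 library than in any U2932 library, at 95.5 to 124 CPM in DOHH2 and 75.0 to 89.2 CPM in U2932. The difference was 0.46 (SE 0.10, adjusted p = 0.000563) in DMSO at 8 h and 0.21 (SE 0.10, adjusted p = 0.0795) with TK at 18 h, so at the later point it did not pass. Of its exon length, 18.1% (770 bases) overlaps PSMC3IP on the other strand. Whether counting used the strand is not given in the sources used here. PSMC3IP lay at 13.4 to 23.0 CPM in DOHH2 and 21.4 to 33.2 CPM in U2932.

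**Figure D2:**
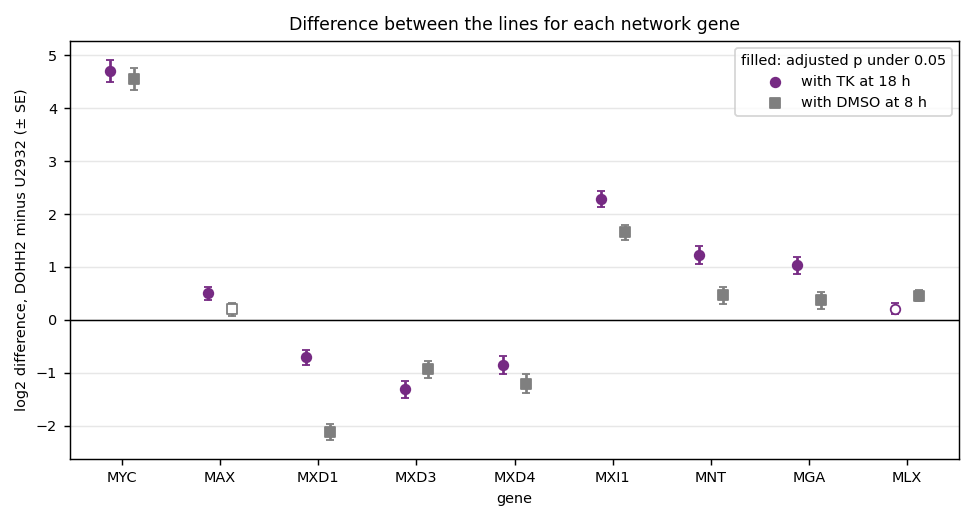
Log2 difference between the lines (DOHH2 minus U2932) of the 9 genes, with its SE, with TK at 18 h (circles, 3 against 3 libraries) and with DMSO at 8 h (squares, 3 against 3); filled symbols passed an adjusted p of 0.05. MYC stands at 4.71 and 4.55, MXI1 at 2.28 and 1.65, and MXD1 at -0.71 and -2.12.

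Levels of different genes were set side by side per kb of exon length. In DOHH2 the mean level of MYC was 144 CPM per kb, followed by MLX at 24.4 and MAX at 18.6 CPM per kb. The antagonists followed with MXD4 at 6.84, MGA at 4.99, MXI1 at 4.79, MNT at 3.93, MXD3 at 2.21 and MXD1 at 1.06 CPM per kb. In U2932 MLX led at 18.9 CPM per kb, ahead of MAX and MXD4, both at 14.7, and MYC was the fourth at 5.94. MXD3 at 4.56, MGA at 3.21, MXD1 at 3.11, MNT at 2.41 and MXI1 at 1.23 CPM per kb completed the order. Exon length counts every annotated isoform, so a gene that uses short isoforms is understated on this scale.

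The level of MYC relative to MAX, both per kb, was 7.71 ± 0.674 in DOHH2 (SD, n = 11) and 0.405 ± 0.0534 in U2932 (SD, n = 9). It ranged from 6.47 to 8.44 in DOHH2 and from 0.293 to 0.470 in U2932. The summed level of the 6 antagonists was closer between the lines, at 23.8 ± 2.43 CPM per kb in DOHH2 and 29.2 ± 3.16 CPM per kb in U2932. Its make-up differed: the MXD genes and MXI1 came to 14.9 CPM per kb in DOHH2 and 23.6 in U2932, whereas MNT and MGA came to 8.92 in DOHH2 and 5.62 in U2932. MYC exceeded the antagonist sum 6.07 ± 0.852-fold in DOHH2, and was 0.202 ± 0.0267 of it in U2932. By group in DOHH2, MYC over the antagonist sum was 5.15 ± 0.161 with TK (SD, n = 3) and 5.98 ± 0.507 with DMSO (n = 2) at 18 h. At 8 h it was 6.42 ± 0.936 with TK and 6.70 ± 0.737 with DMSO (n = 3 each). In U2932 it was 0.200 ± 0.00742 with TK (n = 3) and 0.241 with DMSO (n = 1) at 18 h. At 8 h it was 0.187 ± 0.0297 with TK (n = 2) and 0.202 ± 0.0372 with DMSO (n = 3) there. These ratios are of RNA and carry no test of their own.

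**Figure D3:**
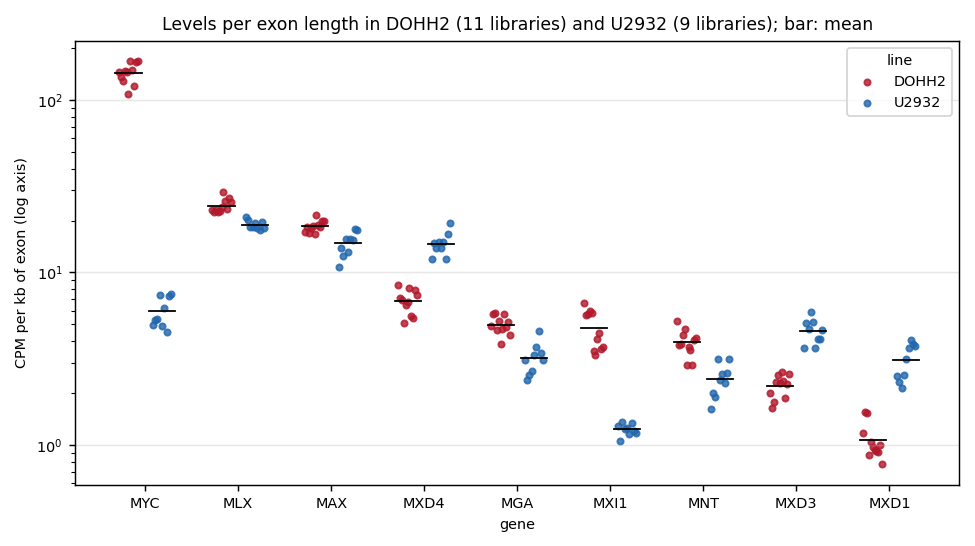
CPM per kb of exon (log axis) of each gene in the 11 DOHH2 libraries (red, left) and the 9 U2932 libraries (blue, right), with the mean as a bar, in the order of the DOHH2 means. MYC averages 144 in DOHH2 and 5.94 in U2932, while MAX averages 18.6 and 14.7.

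TK against DMSO addressed whether the compound moved the network, and no member passed edgeR's quasi-likelihood test in either line at either time. At an unadjusted p under 0.05 each line had 2 members at 18 h (MXD1 and MXD3 in DOHH2, MAX and MNT in U2932) and 0 at 8 h. DESeq2 called MXD1 in DOHH2 at 18 h, and voom called MXD1 and MXD3 there and MNT in U2932. These calls have a wider background than the main fit. Over the settings that left out no single library, 0 to 1968 of all genes passed in DOHH2 at 18 h, and 1 to 1654 in U2932. In the main edgeR fit the share of all genes that passed at 18 h was 0.0728% in DOHH2 and 0.0182% in U2932. At 8 h it was 0% in both lines. Without adjustment, 1411 genes in DOHH2 and 1227 in U2932 at 18 h, and 497 in DOHH2 and 276 in U2932 at 8 h, had p under 0.05. The log2 change of MYC was -0.10 (SE 0.20) in DOHH2 at 18 h, -0.09 (SE 0.18) in DOHH2 at 8 h, -0.50 (SE 0.25) in U2932 at 18 h and -0.22 (SE 0.21) in U2932 at 8 h. The lowest adjusted p among these was 0.684, for U2932 at 18 h, where the TK libraries had 14.9, 15.9 and 16.2 CPM and the only DMSO library 22.2 CPM. A DMSO library of U2932 at 8 h lay below all of these, at 13.6 CPM.

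The member with the smallest p in DOHH2 at 18 h was MXD1, at 7.45, 9.92 and 9.75 CPM with TK and 5.55 and 6.66 CPM with DMSO. All TK libraries were above both DMSO libraries, but the change of 0.56 (SE 0.16) did not pass (adjusted p = 0.264). Without replicate 1 of TK at both times, whose libraries stood apart, it was 0.68 and passed narrowly (adjusted p = 0.0497), and it passed in 4 of 16 other settings in all, with adjusted p between 0.00162 and 1. MXD3 lay on the other side, at 10.4, 8.46 and 9.19 CPM with TK and 11.9 and 13.1 CPM with DMSO (-0.42, SE 0.18, adjusted p = 0.514). In this comparison 4 of the 9 members did not overlap between TK and DMSO, against 25% of all genes.

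In U2932 at 18 h MNT had 14.1, 17.4 and 16.6 CPM with TK and 27.7 CPM in the DMSO library, a change of -0.79 (SE 0.22, adjusted p = 0.379) that passed in 4 of 13 other settings (adjusted p 0.022 to 0.854). The TK libraries were lower than all 6 other U2932 libraries, of which the lowest had 20.1 CPM. MAX had 47.9, 61.3 and 55.2 CPM with TK and 69.6 CPM with DMSO (-0.35, SE 0.16, adjusted p = 0.667). With DMSO pooled over 18 h and 8 h as the control, MAX (-0.43, adjusted p = 0.0238), MNT (-0.61, adjusted p = 0.022) and MXD1 (-0.61, adjusted p = 0.0222) passed; against the 18 h library alone MXD1 was at -0.13 (SE 0.19, adjusted p = 0.929), and MXD1 with DMSO was lower at 18 h than in all 3 libraries at 8 h. Here 6 members did not overlap, against 63.8% of all genes. At 8 h the members without overlap were 0 in DOHH2 (5.56% of all genes) and 1 in U2932 (14% of all genes), namely MXD1, at 20.2 and 23.1 CPM with TK and 25.9, 24.3 and 23.8 CPM with DMSO.

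**Figure D4:**
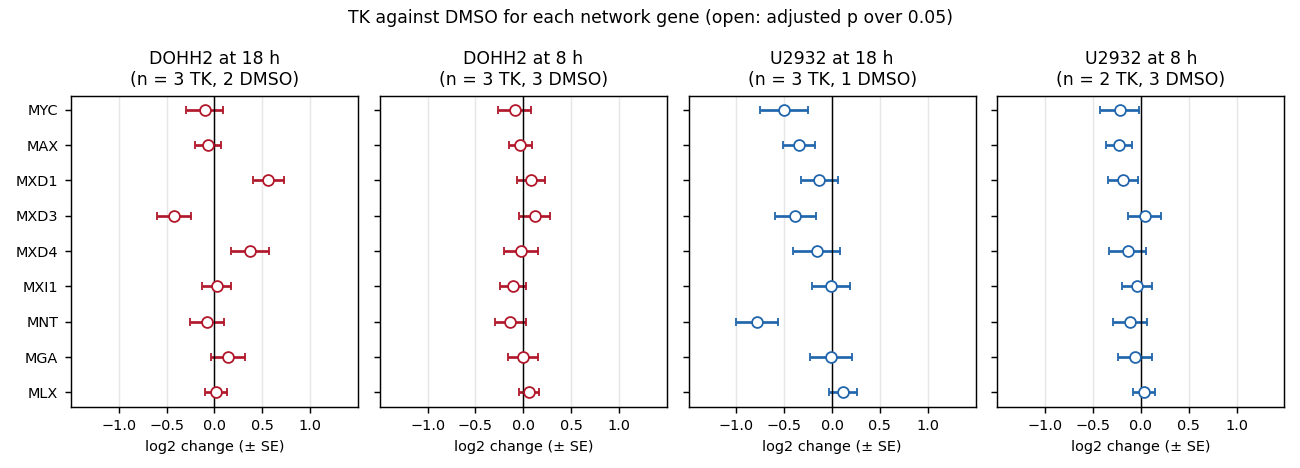
Log2 change with TK against DMSO, with its SE, for each gene in DOHH2 at 18 h and 8 h and in U2932 at 18 h and 8 h; the number of libraries stands above each panel. No point passed an adjusted p of 0.05, and those farthest from 0 are MNT in U2932 at 18 h (-0.79) and MXD1 in DOHH2 at 18 h (0.56).

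No member passed in a test of the change with TK between the lines, at 18 h (0.0243% of all genes passed) or at 8 h (0%). Between 18 h and 8 h none passed in DOHH2 (0.0121% of all genes) or in U2932 (0.00607%). The lowest adjusted p of a member in these 4 comparisons was 0.723, for MXD1 between the lines at 18 h (0.70, SE 0.25). At an unadjusted p under 0.05 there were MXD1 and MNT between the lines at 18 h, MXD1 and MXD3 between the times in DOHH2 and MNT between the times in U2932. Of all 16478 genes, 1017 had such a p between the lines at 18 h, 316 between the lines at 8 h, 712 between the times in DOHH2 and 512 between the times in U2932.

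Members did differ between 18 h and 8 h within DOHH2. With TK, MXD1 and MXI1 were higher at 18 h, 2 of the 9 members against 1.57% of all genes, and the other 7 did not pass. Without regard to the test, 5 of the 9 members did not overlap between the times with TK in DOHH2 (16.4% of all genes) and 3 did not with DMSO (34.5% of all genes). MXI1 had 30.6, 26.1 and 26.6 CPM at 18 h and 16.1, 15.3 and 19.0 CPM at 8 h, with no overlap (0.72, SE 0.14, adjusted p = 0.0128). With DMSO it had 27.6 and 27.0 CPM at 18 h and 20.6, 16.6 and 17.0 CPM at 8 h, a difference of 0.60 (SE 0.15, adjusted p = 0.0834) that did not pass and that likewise left no overlap. In U2932 MXI1 stood at 4.85 to 6.27 CPM in all 9 libraries. No member passed with DMSO in DOHH2, where 0.631% of all genes did.

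MXD1 in DOHH2 with TK had 7.45, 9.92 and 9.75 CPM at 18 h and 6.22, 5.93 and 5.88 CPM at 8 h (0.59, SE 0.14, adjusted p = 0.0429). With DMSO it had 5.55 and 6.66 CPM at 18 h and 5.80, 6.33 and 4.91 CPM at 8 h, which overlapped (0.11, SE 0.16, adjusted p = 0.873). These calls were fragile: the MXD1 call was lost in 7 of 16 other settings and the MXI1 call in 5 of 16. Leaving out TK 8 h replicate 1 or 2 ended both, with MXD1 then at 0.61 and 0.58 and MXI1 at 0.69 and 0.66, and leaving out TK 18 h replicate 2 or 3 ended that of MXD1 (0.51 and 0.54). Without TK replicate 1 of both times, MXD1 passed (0.74, adjusted p = 0.0311) and MXI1 did not (0.62, adjusted p = 0.0676).

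In U2932 the MXD1 values at 18 h were on the low side with either treatment. With TK it had 15.9, 14.7 and 13.6 CPM at 18 h and 20.2 and 23.1 CPM at 8 h (-0.55, SE 0.15, adjusted p = 0.0904). With DMSO it had 16.2 CPM at 18 h and 25.9, 24.3 and 23.8 CPM at 8 h (-0.61, SE 0.20, adjusted p = 0.299). All 4 libraries at 18 h were below all 5 at 8 h, although neither comparison passed, and no other member passed there either (0.218% of all genes with TK, 0.0364% with DMSO). In U2932, 3 members did not overlap between the times with TK (44.2% of all genes) and 4 with DMSO (63.9% of all genes).

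Set against each other, the lines differed in the change of MXD1 between 18 h and 8 h with TK. The difference between these time changes was 1.14 (SE 0.21, adjusted p = 0.014), and MXD1 was the only member of 9 that passed, where 6.69% of all genes did. This comparison was added after the values had been seen. MXI1 (0.69, SE 0.21, adjusted p = 0.0507) and MNT (0.78, SE 0.24, adjusted p = 0.0561) did not pass. With DMSO the same difference for MXD1 was 0.72 (SE 0.26, adjusted p = 0.371), no member passed, and 0.0121% of all genes did. Without U2932 TK 8 h replicate 2 the MXD1 difference with TK was 1.04 and no longer passed (adjusted p = 0.153), and neither did it with only the groups compared in the fit (1.15, adjusted p = 0.0746).

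The wider pathway was followed through 83 genes of 8 lists: MYC paralogues, the MLX branch, SIN3 and deacetylase corepressors, MYC coactivators, MYC turnover, the MGA Polycomb complex, and MYC-induced and MYC-repressed targets. None passed for TK against DMSO in either line at either time (lowest adjusted p 0.252), and none for the differences in the TK change. Between the lines in DMSO at 8 h, 37 were higher and 21 lower in DOHH2, and with TK at 18 h 34 were higher and 29 lower. These shares are near the 67.8% and 69.2% of all genes that differed, and the counts are not read as particular to the pathway.

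Of 30 listed targets that MYC is known to induce, 14 were higher and 3 lower in DOHH2 in DMSO at 8 h, and 13 did not pass, where 67.8% of all genes did. The median log2 difference of the list was 0.27, against -0.03 for all genes. CCND2, a cyclin of the G1 phase, had 125 ± 4.34 CPM in DOHH2 and 0.155 ± 0.106 CPM in U2932 (SD, n = 3 each). TERT, the telomerase subunit, differed by 2.90 (adjusted p = 1.34e-11). NCL, the nucleolar protein nucleolin, differed by 1.41 (adjusted p = 1.54e-08). With TK at 18 h 8 were higher and 11 lower, 11 did not pass (69.2% of all genes did), and the median was -0.07, against -0.00317 for all genes.

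**Figure D5:**
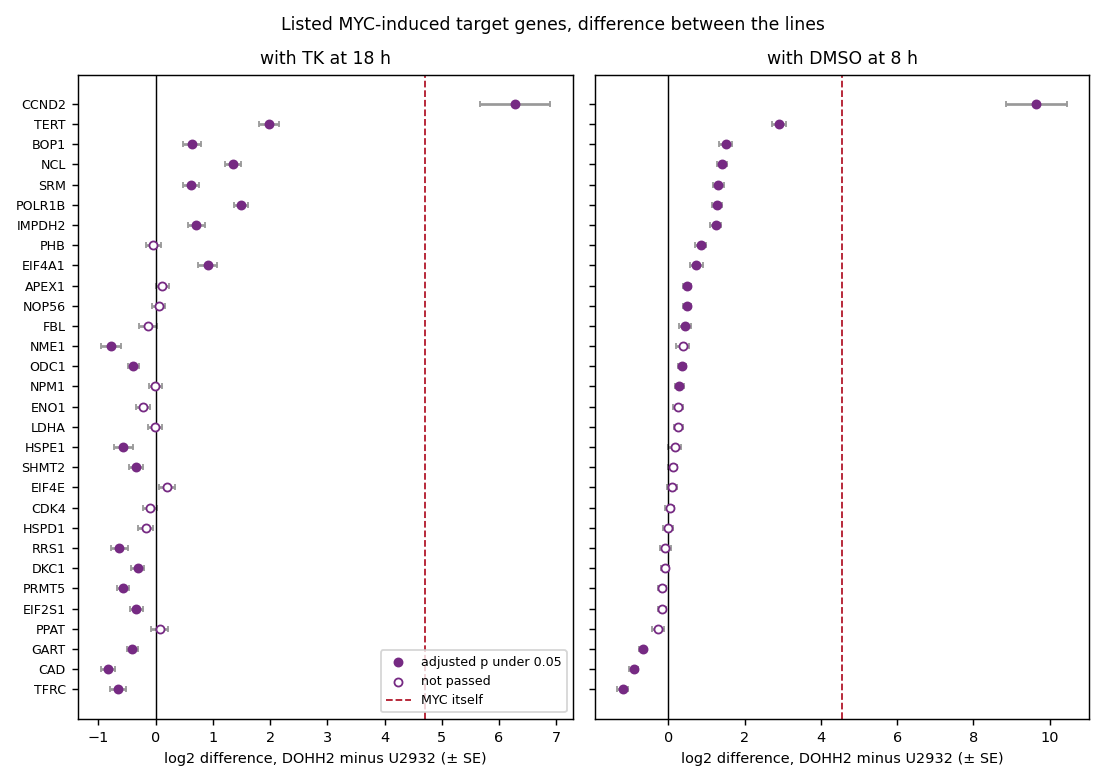
Log2 difference between the lines (DOHH2 minus U2932), with its SE, of 30 listed MYC-induced targets with TK at 18 h (left) and with DMSO at 8 h (right), sorted by the values in DMSO; filled points passed an adjusted p of 0.05 and the dashed line is MYC. All targets but CCND2 lie to the left of MYC at 4.71 and 4.55.

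Of 6 genes listed for repression by MYC, 4 were higher and 1 lower in DOHH2 at both points, again beside 67.8% and 69.2% of all genes. The 4 include ZBTB17, which encodes MIZ1, the factor through which MYC represses CDKN1A and CDKN2B, and which is not itself such a target. CDKN1A, the cell-cycle inhibitor p21, was higher in DOHH2 by 3.38 in DMSO at 8 h and by 4.28 with TK at 18 h. CDKN2B, the inhibitor p15, had 0 counts over 3 DOHH2 libraries and 941 counts over 3 U2932 libraries in DMSO at 8 h. Of the MYC paralogues, MYCN had 7 counts over all 20 libraries and was not tested. MYCL was higher in DOHH2 by 1.27 (adjusted p = 0.0009) in DMSO at 8 h and by 1.66 (adjusted p = 4.34e-05) with TK at 18 h, at a mean of only 1.01 and 1.31 CPM in DOHH2 and 0.418 and 0.402 CPM in U2932.

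Genes of the MLX branch and of the cofactor lists are to be read beside the same background, 67.8% of all genes in DMSO at 8 h. MLXIP, which encodes MondoA, was higher in DOHH2 by 1.03 in DMSO at 8 h and by 1.09 with TK at 18 h. Of its glucose-responsive targets, TXNIP was higher in DOHH2 by 0.39 (SE 0.17, adjusted p = 0.0498, with overlapping libraries) in DMSO at 8 h and by 0.75 (SE 0.17, adjusted p = 0.000631) with TK at 18 h. ARRDC4 had 0 counts in the DOHH2 libraries of both comparisons and 610 and 403 counts in those of U2932. Of 11 corepressor genes, 5 were higher and 5 lower in DMSO at 8 h, led by the deacetylase HDAC2 at 1.87. Of 12 coactivator genes 5 were higher and 3 lower, with the acetyltransferase KAT2A at 1.55 and the BAF and TIP60 subunit ACTL6A at -1.94. Of 11 turnover genes 5 were higher and 4 lower, with the phosphatase subunit PPP2R5A at -1.64. Of 9 genes of the MGA complex 1 was higher and 4 lower. The 1 higher gene was PCGF6, the defining Polycomb subunit of the complex, at 1.46. The median log2 difference of that list was 0.01, against -0.03 for all genes.

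Between 18 h and 8 h with TK in DOHH2, SIN3A, the scaffold that MXD proteins recruit, was higher by 0.45 (adjusted p = 0.0433), and USP28, a deubiquitinase that stabilises MYC, by 0.59 (adjusted p = 0.0387). SRM, the spermidine synthase, was lower, with a change of -0.66 (adjusted p = 0.0258), as was ENO1, a glycolytic enzyme, with -0.48 (adjusted p = 0.0497). The other 79 listed genes did not pass, and 1.57% of all genes did. With DMSO in DOHH2 no listed gene passed between the times, where 0.631% of all genes did. There SIN3A was higher at 18 h by 0.47 (SE 0.12, adjusted p = 0.0951). USP28 was higher there by 0.39 (SE 0.15, adjusted p = 0.335). For both genes the DMSO libraries at 18 h and 8 h did not overlap.

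Within lines, the members did not move as one. After subtracting each line's mean, the log2 CPM of MYC and MAX correlated across the 20 libraries at r = 0.72 (0.80 within DOHH2, 0.71 within U2932), and MXD1 and MGA at r = 0.74 (0.62 and 0.85). MXI1 and MLX ran opposite at r = -0.72, though mainly in DOHH2 (-0.83, against -0.29 in U2932). The likeness of MYC was not limited to MAX. With the antagonists its r ran from 0.69 for MNT and 0.60 for MXD4 down to -0.18 for MXI1. MXD1 and MXD3 ran opposite at r = -0.60 (-0.78 within DOHH2, -0.40 within U2932). The libraries share groups, times and depth, so these are descriptions. Among 10087 genes, the one most like MGA was SMG1 (r = 0.97), the one most like MXI1 was PHLPP1 (0.93), that most like MAX was PITPNB (0.90) and that most like MYC was LINC00094 (0.89).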

How the data were processed

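RNA of 20 libraries was measured by sequencing. The authors deposited whole-number gene counts, and per the submitters' processing notes the authors used STAR, HTSeq and edgeR with GRCh38.p10; no tool version, annotation release or strand setting is given in the sources used here. The summary rows of reads not assigned to a gene (5 per library, 32.7 to 62.7% of all counts) were left out of library sizes and tests. One edgeR model (version 4.0.16, in R 4.3.3) covered the 20 libraries and gave every one of the 8 groups a coefficient, after TMM scaling, with the robust option of the quasi-likelihood fit. Genes entered where at least 3 libraries reached 0.288 CPM, equal to 10 counts in the median library, which left 16478 of 34160 genes with any count. The quasi-likelihood F test was adjusted by Benjamini-Hochberg over these genes, with a threshold of 0.05. CPM values are scaled by TMM factors, and exon lengths are of the union of exons in GENCODE v29, whose versioned identifiers matched all 9 members. The listed gene CIP2A, whose older symbol is KIAA1524, was not used.

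Every member is named. From each list, up to 4 genes past the threshold with the largest changes are taken per comparison, or else the one with the smallest p; cell type markers and genes that overlap a member are named as checks. The members and lists were chosen with earlier results of these data known. Likeness is Pearson's r of log2 CPM (prior count 2) after subtracting each line's mean, over genes of at least 5 CPM on average. Replicate numbers were checked for pairing on 9862 genes. Over 22 same-numbered pairs of libraries the correlation of deviations from group means ran from -0.197 to 0.636, with 11 of 22 over 0.1. Its median was 0.118, against -0.01 for pairs of unlike number. The main fit did not take the numbers to pair the libraries, so a pairing that holds for some groups is left out of it. Alternatives were RLE and upper quartile scaling, dropping the filter, raising it to 50 counts (12880 genes), fewer libraries, the replicate number as a block, DESeq2 1.42.0, voom of limma 3.58.1 with library quality weights, DMSO of both times as control, and each library left out. The fit was tested on counts simulated from its own model, where every change put in was larger than that of any member with TK against DMSO. That test does not show whether smaller changes would be found.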

Additional observations from a re-analysis of the deposited data

Results flagged for a closer look

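Differences between the lines in the 18 h against 8 h change with TK passed an adjusted p of 0.05 in edgeR's quasi-likelihood test for 7 genes, MXD1 of the 9 members and 6 of the 83 listed genes, a share close to the 6.69% of all genes that passed. This comparison was added after the values had been seen. MXD1 differed by 1.14, as described above, with 9.04 ± 1.38 CPM at 18 h and 6.01 ± 0.181 CPM at 8 h in DOHH2, and 14.8 ± 1.16 CPM at 18 h and 21.6 ± 2.08 CPM at 8 h in U2932.

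Of the listed genes, SIN3A differed by 0.71 (adjusted p = 0.0207), with time changes of 0.45 in DOHH2 and -0.26 in U2932. USP28 differed by 0.74 (adjusted p = 0.0401), with 0.59 in DOHH2 and -0.15 in U2932. TRRAP, the scaffold that MYC uses to bring acetyltransferases to genes, differed by 0.78 (adjusted p = 0.0495), with 0.30 in DOHH2 and -0.48 in U2932. In the same test SIN3A and USP28 passed between the times in DOHH2 but not in U2932 (adjusted p = 0.249 and 0.625). TRRAP passed in neither line (adjusted p = 0.316 in DOHH2 and 0.152 in U2932).

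For 3 MYC-induced targets the difference had the opposite sign. NME1, a nucleoside diphosphate kinase, differed by -1.13 (adjusted p = 0.0206), with -0.59 in DOHH2 and 0.55 in U2932. PHB, the mitochondrial prohibitin, differed by -0.76 (adjusted p = 0.0353), with -0.35 in DOHH2 and 0.40 in U2932. ODC1, the first enzyme of polyamine synthesis, differed by -0.67 (adjusted p = 0.0189), with -0.31 in DOHH2 and 0.37 in U2932. None of the 3 passed the same test between the times within either line. The adjusted p was 0.0832 in DOHH2 and 0.147 in U2932 for NME1, 0.176 and 0.169 for PHB, and 0.110 and 0.106 for ODC1. With DMSO this comparison rests on 1 U2932 library at 18 h, so these values are not shown to be particular to TK. The number of all genes that passed this comparison ran from 0 to 2689 when single libraries were left out.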

How the results depend on the processing

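Of 2295 recomputed log2 changes of members, 2228 stayed on their side of the threshold, 28 no longer passed and 39 newly passed. A change of sign was counted as a reversal only where a fit passed, which never occurred; 158 of the 2228 changed sign while past the threshold in neither fit. In the direct comparisons of the lines, with DMSO at 8 h and with TK at 18 h, MYC, MXD1, MXD3, MXD4 and MXI1 kept their call in every setting run. The count of members called for TK against DMSO in DOHH2 at 18 h (0) was 1 with DESeq2, 2 with voom, 1 with DMSO of both times as control and 1 without DOHH2 TK replicate 1 of both times. In U2932 at 18 h (0) it was 1 without a filter, 1 with the groups compared only, 1 with voom and 3 (MAX, MXD1 and MNT) with DMSO of both times. For 18 h against 8 h with TK in DOHH2 (2) it was 1 without a filter, 0 with 1 line or the groups compared only, 4 with voom, 0 to 2 with single libraries left out and 1 without TK replicate 1 of both times. With DMSO in DOHH2 (0) it was 1 with DESeq2 and with voom, and 0 to 1 with single libraries left out. With TK in U2932 (0) it was 1 with 1 line, the groups compared only, DESeq2 or voom, and with DMSO there (0) it was 1 with voom. The line difference in the TK change at 18 h (0) was 1 with voom. For the line difference in the time change with TK (1) it was 2 with upper quartile scaling or no filter, 3 with a filter at 50 counts, with DESeq2 or with the replicate block, 0 with the groups compared only, 5 with voom and 0 to 4 with single libraries left out; with DMSO (0) it was 1 with voom. The replicate block moved no other count of members by over 1.5 times. Member counts are to be read beside all genes, whose number passing also moved. With no single library left out, 0 to 1968 genes passed for TK in DOHH2 at 18 h, and 1 to 1654 in U2932. For 18 h against 8 h it was 7 to 4098 with TK and 43 to 1849 with DMSO in DOHH2. In U2932 it was 26 to 1594 with TK and 4 to 1476 with DMSO. The line difference in the TK change at 18 h had 1 to 106. That in the time change had 2 to 4129 with TK and 1 to 1122 with DMSO. The cause of these changes was not tested. Genes at a few CPM, such as MYCL, and groups of 1 or 2 libraries limit what could be detected.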
